A study of Mus musculus with 8 samples.

Results

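The PGC1 coactivators and the estrogen-related receptors (ERRs) direct the building of mitochondria, and 10 genes of this group were examined in the gastrocnemius (calf) muscle of aged mice with and without muscle NOX4. The genes were the coactivators *Ppargc1a*, *Ppargc1b* and *Pprc1*, the receptors *Esrra*, *Esrrb* and *Esrrg*, the muscle regulator *Perm1*, the nuclear factors *Nrf1* and *Gabpa*, and *Tfam*. They were taken by name from the deposited table of counts, where each stood on 1 of the 32390 rows. The samples were bulk RNA-seq libraries from 4 control mice, which carried loxP-flanked (floxed) *Nox4* alleles and no Cre (*Nox4* fl/fl), and 4 NOX4-deficient mice, which carried the same alleles together with *Mck*-Cre (*Mck*Cre:*Nox4* fl/fl). All were 21 months old by the labels, and the study's results describe them as males on standard chow. *Nox4* encodes NADPH oxidase 4, a producer of hydrogen peroxide, and *Mck*-Cre is driven by the muscle creatine kinase promoter, which is active in skeletal muscle and more weakly in heart, so other cells of the tissue keep an intact *Nox4*. The labels place the 8 libraries in 1 batch.

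PGC1 coactivators do not bind DNA themselves but dock onto transcription factors and recruit the enzymes that open chromatin. In muscle, PGC1α (*Ppargc1a*), whose mRNA is known to respond to contraction, fasting and cAMP signalling, acts with the ERRs on genes of the respiratory chain and of fatty acid oxidation, and acts through NRF1 and GABPA (the α subunit of the factor also called NRF2) on *Tfam*, whose product packages and transcribes mitochondrial DNA. NRF1, nuclear respiratory factor 1, is distinct from NFE2L1 and NFE2L2, the antioxidant factors sometimes called by similar names.

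Promoters were read from RefSeq (GRCm38.p6, 250 bases before to 50 after the annotated start of transcription), where 9 of the 10 genes had an entry, with 14 promoters between them. *Ppargc1b* had none. The promoters of *Ppargc1a* and *Pprc1* are shown because these genes were among the 3 with the smallest p-values, and those of *Tfam* and *Esrra* because, as seen after the search, they hold a match for the motif of another factor of this group. Capitals mark matches to a motif, and each sequence runs 5′ to 3′ on the strand of its gene. The positions are chr5:51567676-51567975 (minus strand) for *Ppargc1a*, chr19:46056289-46056588 (plus strand) for *Pprc1*, chr10:71237995-71238294 (minus strand) for *Tfam* and chr19:6921759-6922058 (minus strand) for *Esrra*.
Ppargc1a: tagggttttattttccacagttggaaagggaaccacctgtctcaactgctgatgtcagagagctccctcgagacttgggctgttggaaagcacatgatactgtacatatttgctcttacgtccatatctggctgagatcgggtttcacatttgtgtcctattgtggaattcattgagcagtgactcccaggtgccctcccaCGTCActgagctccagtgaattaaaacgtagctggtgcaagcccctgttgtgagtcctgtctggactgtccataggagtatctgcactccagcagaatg
Pprc1: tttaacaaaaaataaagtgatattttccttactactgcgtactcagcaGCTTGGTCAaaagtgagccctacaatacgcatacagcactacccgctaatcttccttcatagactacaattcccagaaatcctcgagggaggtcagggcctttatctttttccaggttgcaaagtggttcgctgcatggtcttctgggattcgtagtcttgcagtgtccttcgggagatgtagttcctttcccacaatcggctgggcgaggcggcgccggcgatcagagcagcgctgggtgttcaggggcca
Tfam: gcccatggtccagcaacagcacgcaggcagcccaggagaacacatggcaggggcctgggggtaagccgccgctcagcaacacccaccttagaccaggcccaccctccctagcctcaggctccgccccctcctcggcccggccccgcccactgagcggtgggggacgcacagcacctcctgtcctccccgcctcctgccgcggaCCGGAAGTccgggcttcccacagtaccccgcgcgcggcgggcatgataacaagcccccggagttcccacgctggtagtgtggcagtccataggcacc
Esrra: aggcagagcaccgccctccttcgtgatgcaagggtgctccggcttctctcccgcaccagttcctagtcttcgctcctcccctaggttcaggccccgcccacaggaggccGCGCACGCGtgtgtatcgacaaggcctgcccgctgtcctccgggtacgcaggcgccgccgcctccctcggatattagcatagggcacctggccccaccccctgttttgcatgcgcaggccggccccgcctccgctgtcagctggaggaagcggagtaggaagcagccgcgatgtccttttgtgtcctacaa
Each motif was searched on both strands. The *Ppargc1a* promoter held the core TGACG of the cAMP response element on the opposite strand at −49 to −45 from the start, a sequence found in 20.8% of the 32851 mouse promoters. The full element TGACGTCA, which contains that core and is found in 1.79% of promoters, was in none of the 14. The *Pprc1* promoter held the antioxidant response element TGACNNNGC on the opposite strand at −202 to −194 (12.4% of promoters). In the *Tfam* promoter the ETS motif CCGGAAGT, which GABPA binds, lay on the gene's strand at −47 to −40 (3.89% of promoters). In the *Esrra* promoter the NRF1 motif CGCNTGCGC lay on the opposite strand at −141 to −133 (6.25% of promoters). Among the other promoters, the TGACG core occurred at 2 places in 1 of *Esrrb*, a MEF2 motif (3.19% of promoters) in 1 of *Esrrg* and 1 of *Nrf1*, and an antioxidant response element in another of *Esrrg*. The extended ERR element TNAAGGTCA (1.28% of promoters) had no match in the 14. These are matches of letters and were not measured as binding sites.

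The 8 libraries held 16350548 to 19804661 counts on genes. The deleted gene itself had few reads, with 5.09, 2.47, 1.87 and 3.64 CPM (counts relative to library size, scaled by edgeR's TMM method) for *Nox4* in control replicates 1 to 4 and 1.74, 2.17, 2.21 and 2.17 CPM in NOX4-deficient replicates 1 to 4. The groups overlapped, and the difference missed the test (log2 fold change −0.65, SE 0.29, edgeR adjusted p = 0.207). With single libraries left out the estimate ranged from −0.82 to −0.36 (edgeR adjusted p 0.106 to 0.489). Muscle fiber markers such as *Ckm* and *Acta1* summed to 99900 to 133000 CPM in control and 104000 to 139000 CPM in NOX4-deficient libraries. Slow-fiber markers are given below, with the genes that were highest in the same libraries. Among other marker lists, fast fiber (9 tested), adipocyte (7), immune cell (7), fibroblast and tendon (9), satellite cell (3) and denervation (7) had 0 called by edgeR, with 0, 0, 3, 3, 2 and 3 at an unadjusted p under 0.05. Those of immune cells and denervation were lower in NOX4-deficient muscle and those of fibroblasts and tendon and of satellite cells higher, and the sums of the satellite cell markers did not overlap (5.72 to 6.58 CPM in control and 7.34 to 10.1 CPM in NOX4-deficient libraries). Both DESeq2 and pydeseq2 called 2 denervation genes lower (*Myog* and *Gadd45a*). An unadjusted p under 0.05 was common over all rows tested, as described below. Blood markers rose in 2 of 3 genes, the globins *Hba-a1* (log2 fold change 1.24, edgeR adjusted p = 0.00978) and *Hbb-bs* (1.00, edgeR adjusted p = 0.0153), and summed to 47.6 to 52.7 CPM in control and 72.3 to 159 CPM in NOX4-deficient libraries, and 1 of 7 endothelial markers rose, *Vwf* (0.74, edgeR adjusted p = 0.0129, sums of the list 228 to 272 and 256 to 275 CPM). The part of these cell types in the results was not tested. Brown adipocyte markers were too low to test, with *Ucp1* at 0 counts in every library. In bulk tissue, fewer cells of a type and less RNA per cell cannot be told apart.

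None of the 10 genes was called as changed. A call needed an adjusted p under 0.05 in edgeR's quasi-likelihood test, over the 12725 rows tested, as well as a log2 fold change beyond 0.5 in size, and by this rule 6.16% of rows tested were called (3.48% lower and 2.68% higher in NOX4-deficient muscle). All 10 genes passed the filter on low counts. Of them, 4 had an unadjusted p under 0.05, 3 with a lower and 1 with a higher level. The largest of the 4, 0.0494 for *Esrrb*, was 0.214 after adjustment in edgeR, so p-values of this size were common over all rows. Both DESeq2 and pydeseq2 (the Python version of DESeq2, the tool of the study) called 1, *Ppargc1a*. They called 1018 and 1009 rows over the whole table. The log2 fold change was below 0 for 8 genes and above 0 for *Ppargc1b* and *Esrra*, with a median of −0.26, against 0.014 over all rows tested. The groups did not overlap for 2 genes, *Ppargc1b* and *Pprc1*, where 16.2% of all rows tested had groups that did not overlap. The p-values set the difference between groups against the spread between these 8 mice, which the fit estimates partly from all rows.

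*Ppargc1a*, the coactivator that gives the family its name, had 127, 161, 54.2 and 55.9 CPM in control replicates 1 to 4, and 27.7, 33.0, 29.5 and 61.4 CPM in NOX4-deficient replicates 1 to 4. Control replicates 1 and 2 stood well above control replicates 3 and 4, and NOX4-deficient replicate 4 lay above both of the low controls, so that the groups overlapped through this library alone. The control mean was 99.5 ± 53.3 CPM (SD, n = 4), and that of NOX4-deficient muscle 37.9 ± 15.8 CPM (SD, n = 4). This gave the largest difference of the 10 genes, a log2 fold change of −1.39 (SE 0.42, 95% interval −2.35 to −0.44), which missed the threshold in edgeR (adjusted p = 0.0855) and passed it in DESeq2 (−1.39, SE 0.49, adjusted p = 0.042) and pydeseq2 (−1.39, SE 0.48, adjusted p = 0.0359). An edgeR fit that was not robust to genes of unusual spread also passed it (adjusted p = 0.0384). Whichever library was left out, the estimate stayed below 0, from −1.71 without NOX4-deficient replicate 4 (adjusted p = 0.0533) to −1.06 without control replicate 2 (adjusted p = 0.151).

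*Ppargc1b*, which encodes the related coactivator PGC1β, went in the other direction at a far lower level. Its counts were 26, 57, 47 and 61 reads in the control and 61, 113, 64 and 65 reads in the NOX4-deficient libraries. On the CPM scale these were 1.56, 2.93, 2.51 and 3.17 in control and 3.67, 5.71, 3.36 and 3.81 in NOX4-deficient muscle. Every NOX4-deficient library was above every control library, although the gap between the nearest (3.17 and 3.36 CPM) was small beside the spread within groups. The log2 fold change was 0.70 (SE 0.25, 95% interval 0.15 to 1.24) and missed the threshold in edgeR (adjusted p = 0.117) and in DESeq2 (adjusted p = 0.0904). It ranged from 0.50 without NOX4-deficient replicate 2 to 0.82 without control replicate 4.

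*Pprc1* encodes PRC, the third coactivator of the family, known as a gene induced by serum and by metabolic stress. It had 19.7, 23.0, 23.9 and 24.7 CPM in control and 15.1, 19.4, 16.8 and 18.0 CPM in NOX4-deficient libraries. The highest NOX4-deficient library was just under the lowest control, so the groups did not overlap. *Pprc1* had the smallest p-value of the 10 genes, with a modest log2 fold change of −0.40 (SE 0.12, 95% interval −0.66 to −0.13). Its edgeR adjusted p was 0.0651, those of DESeq2 and pydeseq2 were 0.0306 and 0.0329, and under no alternative did its fold change reach the minimum of a call. In the GENCODE M21 annotation its exons share 177 bases with *Ldb1* on the opposite strand, and reads from the 2 genes cannot be told apart there in unstranded libraries.

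**Figure D1:**
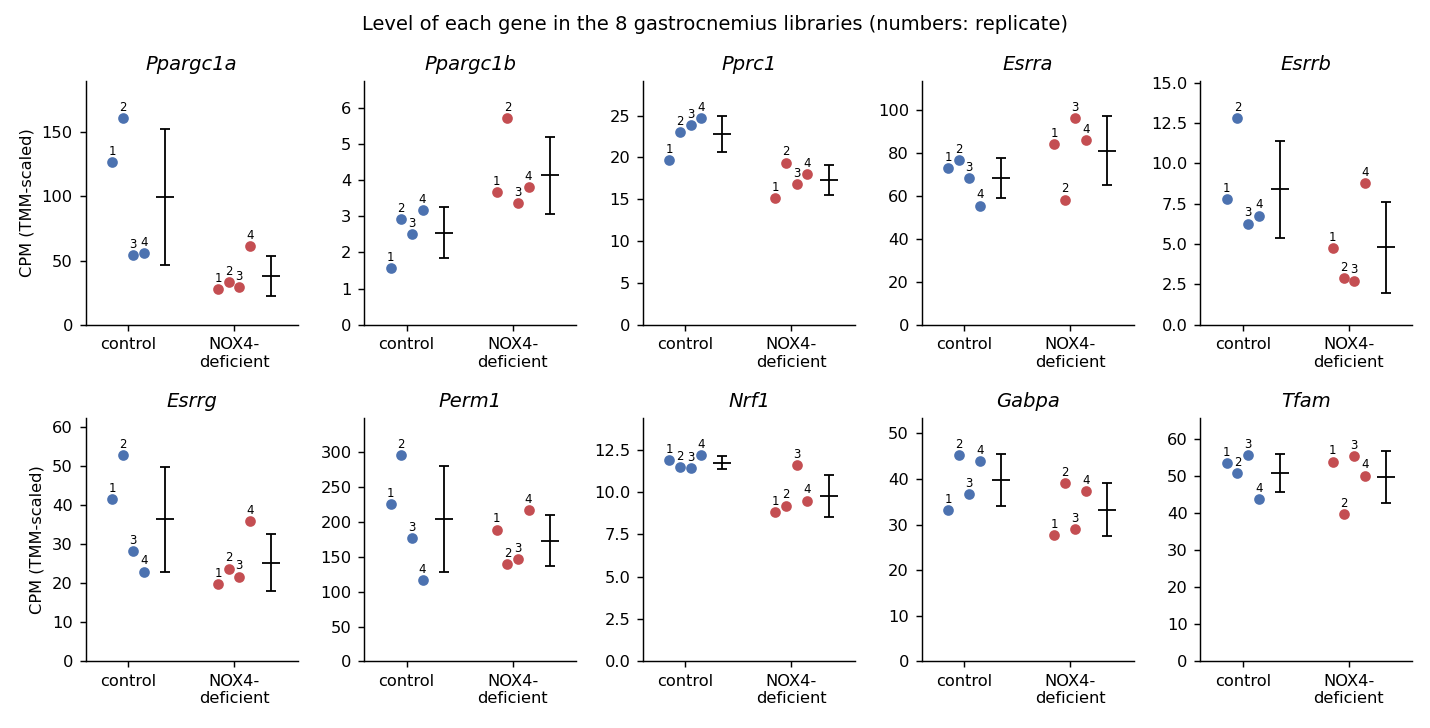
Level of each of the 10 genes in every library, in TMM-scaled CPM on axes that start at 0, with control in blue, NOX4-deficient in red, replicate numbers beside the points and bars for the mean and SD of 4 libraries. *Ppargc1a* ran from 54.2 to 161 CPM in control and from 27.7 to 61.4 CPM in NOX4-deficient libraries, and only *Ppargc1b* and *Pprc1* had groups that did not overlap.

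The ratio of *Ppargc1a* to *Ppargc1b*, each per kilobase of its longest coding transcript, was 46.0, 31.1, 12.2 and 9.97 in control replicates 1 to 4 and 4.27, 3.27, 4.97 and 9.11 in NOX4-deficient replicates 1 to 4. Each control ratio was above each NOX4-deficient ratio, narrowly so between control replicate 4 and NOX4-deficient replicate 4. The ratio was chosen after the values of both genes were seen, so it was not tested.

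The ERRs are orphan nuclear receptors that bind shared DNA elements and take PGC1 coactivators in place of a hormone. *Esrra*, the receptor known for the broadest control of respiratory genes, had 73.1, 76.5, 68.3 and 55.5 CPM in control and 84.0, 58.3, 96.2 and 86.1 CPM in NOX4-deficient libraries. NOX4-deficient replicates 1, 3 and 4 lay above all controls, and NOX4-deficient replicate 2 lay below all but control replicate 4. The log2 fold change was 0.25 (SE 0.15, 95% interval −0.081 to 0.58, edgeR adjusted p = 0.359). It ranged from 0.16 without control replicate 4 (adjusted p = 0.639) to 0.38 without NOX4-deficient replicate 2 (adjusted p = 0.0865). *Esrra* shares 73 exon bases with *Trmt112* on the opposite strand and 91 with the microRNA gene *Mir6990*.

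*Esrrb*, best known from embryonic stem cells and present in muscle at a low level, had 7.79, 12.8, 6.26 and 6.76 CPM in control and 4.75, 2.88, 2.73 and 8.79 CPM in NOX4-deficient libraries. NOX4-deficient replicates 1 to 3 lay below all controls, while replicate 4 was below control replicate 2 alone. The log2 fold change was −0.82 (SE 0.37, 95% interval −1.64 to −0.0024) and did not pass (edgeR adjusted p = 0.214). This receptor was the only gene of the 10 whose call turned on a single library, since it was called without NOX4-deficient replicate 4 (−1.27, SE 0.29, adjusted p = 0.0261), whereas without control replicate 2 the value was −0.54 (adjusted p = 0.442).

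*Esrrg*, the receptor known for high levels in oxidative and slow muscle, had 41.5, 52.9, 28.3 and 23.0 CPM in control and 19.9, 23.8, 21.7 and 35.9 CPM in NOX4-deficient libraries. The order of libraries within each group resembled that of *Ppargc1a*, with control replicates 1 and 2 high and NOX4-deficient replicate 4 above the others. The log2 fold change was −0.53 (SE 0.27, 95% interval −1.12 to 0.067, edgeR adjusted p = 0.274), and it was −0.29 without control replicate 2. *Perm1*, a muscle protein induced by PGC1α and ERRα that acts on their targets in turn, had 225, 296, 177 and 117 CPM in control and 189, 140, 147 and 217 CPM in NOX4-deficient libraries. All 4 NOX4-deficient values lay within the range of the controls. Its log2 fold change was −0.23 (SE 0.25, 95% interval −0.80 to 0.33, edgeR adjusted p = 0.635), and without control replicate 2 the estimate was 0.00094, with the sign turned.

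The partner factors lay closer together. *Nrf1* had 11.9, 11.5, 11.4 and 12.2 CPM in control and 8.84, 9.20, 11.6 and 9.50 CPM in NOX4-deficient libraries, so that only NOX4-deficient replicate 3 reached the narrow range of the controls. The log2 fold change was −0.26 (SE 0.13, 95% interval −0.54 to 0.011, edgeR adjusted p = 0.237). *Gabpa* had 33.2, 45.3, 36.7 and 44.0 CPM in control and 27.7, 39.1, 29.0 and 37.3 CPM in NOX4-deficient libraries, and in both groups the even replicates were above the odd ones. Its log2 fold change was −0.26 (SE 0.14, 95% interval −0.57 to 0.053, edgeR adjusted p = 0.310). *Gabpa* shares 397 exon bases with *Atp5j*, an ATP synthase subunit gene on the opposite strand. *Tfam*, the target at the end of this chain, had 53.4, 50.7, 55.7 and 43.7 CPM in control and 53.9, 39.8, 55.4 and 50.1 CPM in NOX4-deficient libraries. The groups covered nearly the same range, and the log2 fold change was −0.031 (SE 0.12, 95% interval −0.30 to 0.24, edgeR adjusted p = 0.918), with the sign turning on which library was left out (−0.098 to 0.063).

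**Figure D2:**
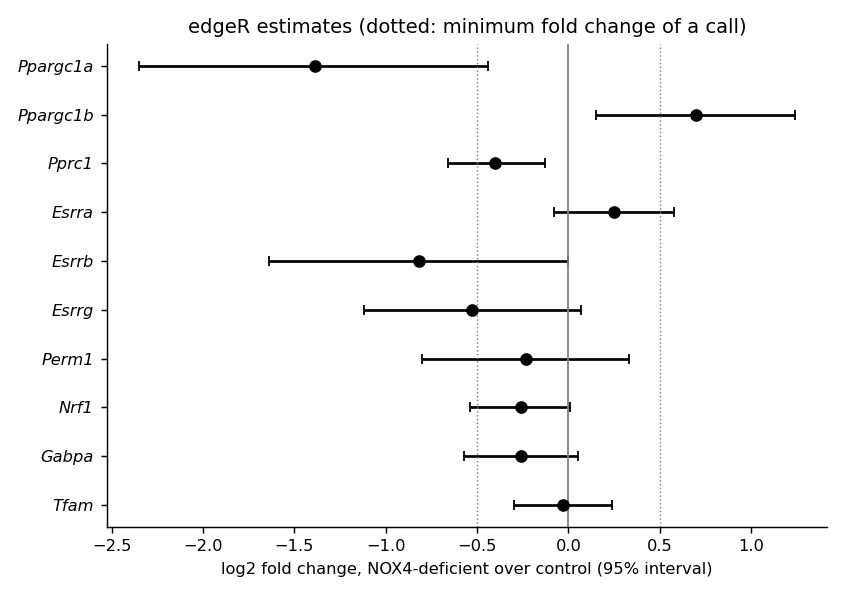
edgeR log2 fold change, NOX4-deficient over control, of each of the 10 genes with its 95% interval. The intervals of *Ppargc1a* (−2.35 to −0.44), *Ppargc1b* (0.15 to 1.24), *Pprc1* (−0.66 to −0.13) and *Esrrb* (−1.64 to −0.0024) exclude 0 before adjustment over all rows, and the dotted lines mark the minimum fold change of a call.

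Mice of the same genotype differed far more in some of these genes than in others. Among the 8755 rows with a mean of at least 5 CPM, the median coefficient of variation was 10.8% in control and 13.9% in NOX4-deficient libraries. That of *Ppargc1a* was 53.5% and 41.7%, and 0.56% and 1.92% of those rows had a larger value. *Esrrb* was at 35.8% and 58.9%, the latter above *Ppargc1a*, *Esrrg* at 37.0% and 28.6%, and *Perm1* at 37.2% and 20.8%. The other end was held by *Nrf1* in control muscle at 2.95%, where 97.8% of rows varied more, though in NOX4-deficient muscle it was 12.5%. *Pprc1* (9.69% and 10.6%) and *Tfam* (10.2% and 14.1%) were near the median in control muscle. The most variable members were thus those with the widest intervals.

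The spread had a shape that several genes shared. Within the controls replicate 2 was highest, and within the NOX4-deficient libraries replicate 4 was highest, for *Ppargc1a*, *Esrrb*, *Esrrg* and *Perm1*. Markers of slow fibers, the oxidative fibers that are sparse in mouse gastrocnemius, were highest in the same 2 libraries. The 9 slow-fiber markers (such as *Myh7* and *Tnni1*) summed to 516, 823, 451 and 391 CPM in control and 505, 617, 746 and 1380 CPM in NOX4-deficient replicates 1 to 4. edgeR called 0 of the 9, none had an unadjusted p under 0.05, and DESeq2 and pydeseq2 called 0. Between genotypes the log2 fold changes of the markers lay above 0 (such as *Myh7* at 1.14 and *Tnni1* at 0.80), except *Myoz2* (−0.13). Those of *Ppargc1a*, *Esrrb*, *Esrrg* and *Perm1* lay below 0. Their part in the levels of *Ppargc1a*, *Esrrb*, *Esrrg* and *Perm1* was not tested.

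A different pair of libraries was lowest for *Esrra* and *Tfam*, namely control replicate 4 and NOX4-deficient replicate 2. On a log2 scale relative to the mean of the 8 libraries, *Esrra* was at −0.41 and −0.34 there and *Tfam* at −0.19 and −0.33. The mean of 78 nuclear genes for respiratory chain and ATP synthase subunits was at −0.24 and −0.37 in the same libraries, the mean of the protein import genes at −0.09 and −0.29, and that of the muscle fiber markers at −0.23 and −0.19. These lists were thus lowest within each group in the same libraries as *Esrra* and *Tfam*, and the part of the muscle fiber content in this was not tested.

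**Figure D3:**
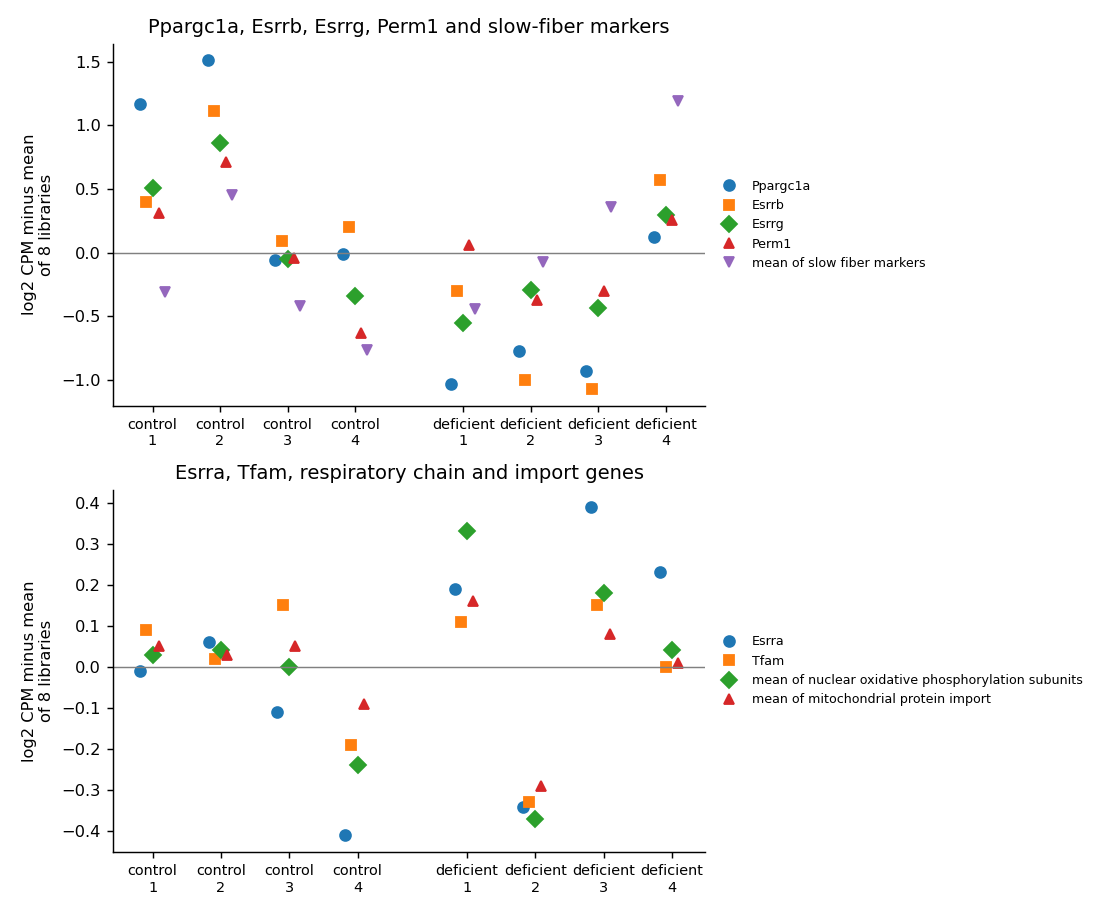
Level of selected genes and list means in each library, as log2 CPM minus the mean of the 8 libraries, with *Ppargc1a*, *Esrrb*, *Esrrg*, *Perm1* and slow-fiber markers in the upper panel and *Esrra*, *Tfam*, respiratory chain and import genes in the lower. Control replicate 2 and NOX4-deficient replicate 4 are the highest of their groups in the upper panel, and control replicate 4 and NOX4-deficient replicate 2 the lowest of theirs in the lower.

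Levels were compared between genes per kilobase of the longest coding transcript (GENCODE M21). In control muscle *Perm1* was most abundant at 52.2 ± 19.4 CPM per kb (SD, n = 4), followed by *Esrra* (30.5 ± 4.11), *Ppargc1a* (15.4 ± 8.23), *Tfam* (12.2 ± 1.25), *Gabpa* (7.98 ± 1.16), *Esrrg* (6.78 ± 2.50), *Pprc1* (4.35 ± 0.419), *Nrf1* (3.28 ± 0.103), *Esrrb* (1.95 ± 0.698) and *Ppargc1b* (0.695 ± 0.194). The ranges of neighbours overlapped throughout the first 4 places and from *Gabpa* to *Pprc1*, and did not overlap between *Tfam* and *Gabpa* or from *Pprc1* through *Nrf1* and *Esrrb* to *Ppargc1b*. PGC1α mRNA was thus the most abundant of the 3 coactivators in control muscle. In NOX4-deficient muscle *Ppargc1a* stood in place 5, at 5.86 ± 2.45 CPM per kb, below *Tfam* (12.0 ± 1.69) and *Gabpa* (6.67 ± 1.15), and its range overlapped that of *Gabpa*. *Ppargc1b* was at 1.13 ± 0.291 and *Esrrb* at 1.11 ± 0.656 CPM per kb, with overlapping ranges. With the merged exons of each gene as its length instead, *Esrrb* moved above *Nrf1* in control and *Ppargc1b* above *Nrf1* in NOX4-deficient muscle, and the other places were kept.

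**Figure D4:**
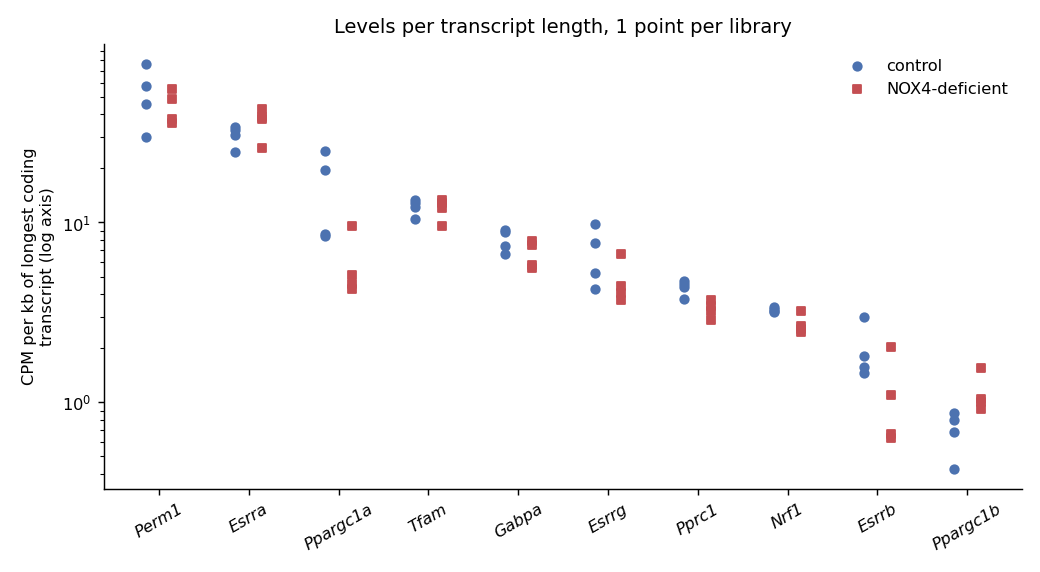
Level of each gene per kilobase of its longest coding transcript in every library, on a log axis, in the order of the control means. *Perm1* and *Esrra* are at the top in both groups and *Esrrb* and *Ppargc1b* at the bottom, and the points of *Ppargc1a* span 8.38 to 24.9 CPM per kb in control and 4.29 to 9.50 in NOX4-deficient muscle.

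The genes around these regulators were taken from lists. Of 25 receptors and factors that PGC1 coactivators dock onto or work with, 3 fell, 0 rose and 22 were not called. This is 12.0% of the list, beside 6.16% of all rows. The median log2 fold change was −0.090, and it ranged from −0.11 without control replicate 1 to −0.044 without NOX4-deficient replicate 1. *Rxrg* (0.41, edgeR adjusted p = 0.0366) and *Thra* (0.36, edgeR adjusted p = 0.0355) were higher but short of the minimum fold change. *Yy1*, a zinc finger factor that couples mTOR signalling to PGC1α, fell from 75.3 ± 6.55 to 53.1 ± 0.991 CPM (log2 fold change −0.50, SE 0.094, edgeR adjusted p = 0.00824). *Nfe2l2*, the antioxidant master factor, fell by 0.65 on the log2 scale (SE 0.13, edgeR adjusted p = 0.0112), and *Ppard*, the PPAR most abundant in muscle, fell by 0.58 (SE 0.12, edgeR adjusted p = 0.0153). *Yy1* lay at the minimum fold change and was no longer called without control replicate 4 (−0.44) or NOX4-deficient replicate 1 (−0.48), 3 (−0.50) or 4 (−0.49), nor with all 8 libraries scaled by library size only (−0.49) or held to at least 10 counts in every sample (−0.48), each time on the fold change alone. *Nfe2l2* and *Ppard* were called whichever library was left out.

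The enzymes, co-regulators and corepressors that act on PGC1 coactivators had 34 of 35 genes tested, of which 3 fell, 0 rose and 31 were not called. This is 8.82% of the genes tested, near the 6.16% of all rows. The median was −0.11, and it ranged from −0.14 without control replicate 1 to −0.021 without NOX4-deficient replicate 1. *Lpin1*, a phosphatidate phosphatase that also serves as a coactivator with PGC1α, had 655, 634, 614 and 970 CPM in control and 233, 289, 206 and 330 CPM in NOX4-deficient libraries. The groups stood well apart, and its fall of 1.44 on the log2 scale (SE 0.18, edgeR adjusted p = 9.61e-04) was of the size estimated for *Ppargc1a*, with a much smaller error. *Hdac4*, a class II histone deacetylase that restrains MEF2 factors, fell from 81.2 ± 9.94 to 40.3 ± 8.29 CPM (log2 fold change −1.01, SE 0.15, edgeR adjusted p = 0.00203). *Mybbp1a*, a repressor that binds PGC1α, fell from 97.9 ± 11.9 to 68.5 ± 3.62 CPM (−0.52, SE 0.10, edgeR adjusted p = 0.0132), but was under the minimum fold change without control replicate 3 (−0.49) or 4 (−0.43) or NOX4-deficient replicate 1 (−0.48) or 3 (−0.48), and with at least 10 counts in every sample (−0.50 after rounding). The calls of *Lpin1* and *Hdac4* held with each library left out.

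Of 22 genes of mitochondrial DNA replication and transcription, 0 fell, 1 rose and 21 were not called, which is 4.55% of the list beside 6.16% of all rows. The median was −0.10, and with single libraries left out it ranged from −0.11 to −0.047 (without NOX4-deficient replicate 3). *Dguok*, which makes deoxynucleotides inside mitochondria, rose from 5.91 ± 0.846 to 8.68 ± 0.844 CPM (log2 fold change 0.56, SE 0.15, edgeR adjusted p = 0.0437), a call that was lost when any library but control replicate 3 was left out (adjusted p 0.0513 to 0.119) or when low counts were not filtered (adjusted p = 0.0631). *Polrmt*, the mitochondrial RNA polymerase, had 26.0 ± 1.48 and 19.9 ± 1.35 CPM (−0.38, SE 0.10, edgeR adjusted p = 0.0424), short of the minimum fold change. Among mRNAs encoded in mitochondrial DNA itself, 3 of 13 were analysed here and 0 were called by edgeR, DESeq2 or pydeseq2, with 0 at an unadjusted p under 0.05. *mt-Nd2*, a complex I subunit, had a log2 fold change of −0.026 (SE 0.12, edgeR adjusted p = 0.933) and *mt-Co3*, a complex IV subunit, −0.23 (SE 0.52, edgeR adjusted p = 0.843). Both signs turned with single libraries left out.

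Genes known as PGC1 or ERR targets in muscle numbered 52, and 3 fell, 1 rose and 48 were not called, a share of 7.69% beside 6.16% of all rows. The median was 0.029, and it ranged from −0.037 without control replicate 4 to 0.12 without NOX4-deficient replicate 2. Of the list 15 genes are also respiratory subunits and 2 slow-fiber markers. *Pdk4*, the kinase that shuts off pyruvate dehydrogenase, had 1660, 2070, 2220 and 1540 CPM in control and 280, 472, 886 and 942 CPM in NOX4-deficient libraries. Its fall of 1.54 on the log2 scale (SE 0.35, edgeR adjusted p = 0.0288) missed the threshold without control replicate 2 (adjusted p = 0.0585), 3 (0.0663) or 4 (0.0688) or NOX4-deficient replicate 2 (0.0973). With all 8 libraries it also missed with no filter on low counts (adjusted p = 0.122) and with odd against even replicate numbers as a term (adjusted p = 0.0738). *Acsl1*, which activates long-chain fatty acids, fell from 362 ± 66.2 to 230 ± 38.0 CPM (−0.65, SE 0.15, edgeR adjusted p = 0.0195), and missed without control replicate 2 (adjusted p = 0.056) or NOX4-deficient replicate 1 (0.0521) or 3 (0.0605). *Slc16a1*, the lactate carrier MCT1, fell by 0.56 (SE 0.13, edgeR adjusted p = 0.0224), and was not called without control replicate 1 (adjusted p = 0.0501) or 2 (0.0678) or NOX4-deficient replicate 1 (0.06) or 2 (−0.48, under the minimum fold change). *Tfrc*, the transferrin receptor for iron uptake, rose from 32.9 ± 6.46 to 103 ± 13.8 CPM (1.65, SE 0.15) and was called whichever library was left out. The 15 respiratory subunits of the list had 0 called.

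Respiratory chain and ATP synthase subunits encoded in the nucleus, the best known output of PGC1α and ERRα, were measured for all 78 listed genes, of which edgeR, DESeq2 and pydeseq2 called 0, with 0 at an unadjusted p under 0.05. The log2 fold changes lay between −0.23 and 0.29, with 71 above 0 and 7 below, and their median was 0.12. Single libraries moved the median, which was 0.056 without control replicate 4, 0.028 without NOX4-deficient replicate 1 and 0.23 without NOX4-deficient replicate 2. It was 0.11 to 0.12 under the other scalings of library size and with DESeq2. The complex I subunits *Ndufv3* (0.27, SE 0.15, edgeR adjusted p = 0.319) and *Ndufa2* (0.29, SE 0.18, edgeR adjusted p = 0.378) had the smallest p-values.

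Mitochondrial protein import had 30 of 31 genes tested, of which 1 fell, 0 rose and 29 were not called, which is 3.33% of the genes tested beside 6.16% of all rows. The median was 0.0028, and it ranged from −0.042 without control replicate 4 to 0.087 without NOX4-deficient replicate 2. *Timm10*, a chaperone of the intermembrane space, fell from 16.2 ± 1.45 to 10.3 ± 2.15 CPM (log2 fold change −0.66, SE 0.16, edgeR adjusted p = 0.0255), a call lost without control replicate 1 (adjusted p = 0.0545), 2 (0.0736) or 4 (0.0557) or NOX4-deficient replicate 3 (0.0634). *Hspa9*, the matrix chaperone that pulls proteins in, had 536 ± 25.2 and 445 ± 26.1 CPM and missed the threshold (−0.27, SE 0.093, edgeR adjusted p = 0.103). The outer membrane porins and citrate synthase, often read as measures of mitochondrial content, had 0 of 4 called by edgeR, DESeq2 or pydeseq2 and 0 at an unadjusted p under 0.05, with a median of 0.036. That median ranged from −0.021 without control replicate 4 to 0.11 without NOX4-deficient replicate 2. *Vdac3* was at 0.11 (SE 0.11, edgeR adjusted p = 0.581) and *Vdac1* at 0.053 (SE 0.12, edgeR adjusted p = 0.840).

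**Figure D5:**
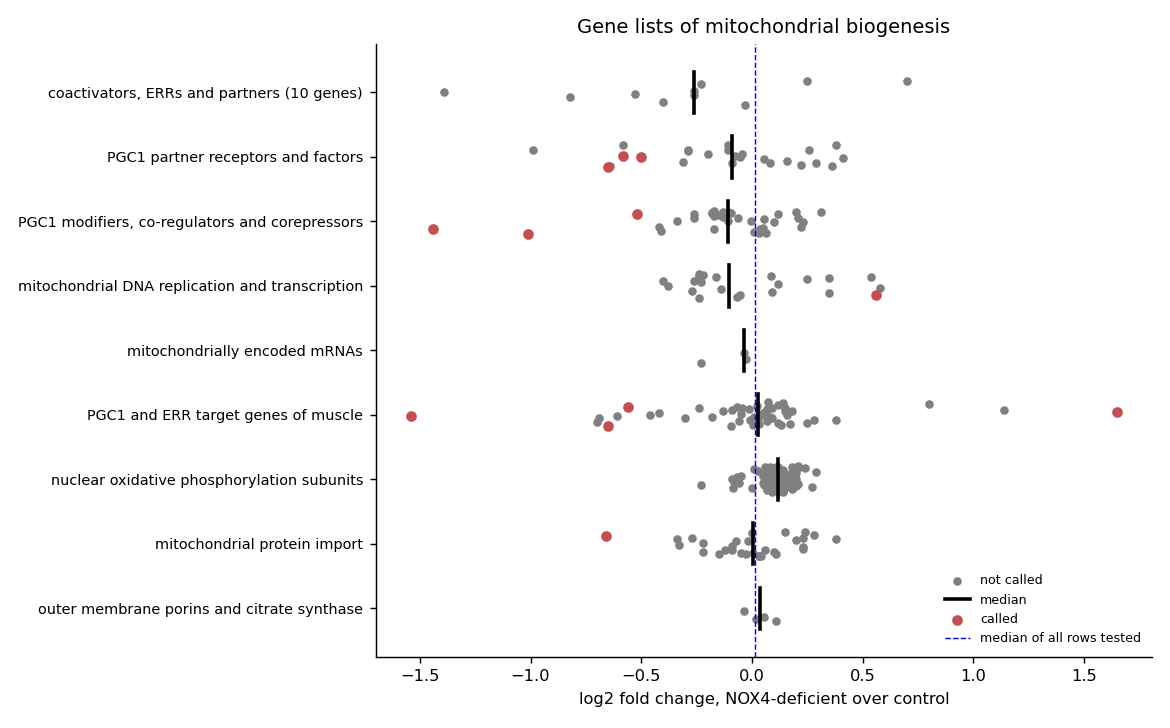
edgeR log2 fold changes, NOX4-deficient over control, of the 10 genes and of each gene list, 1 point per gene, with called genes in red, the median of each list as a black bar and the median of all rows tested as a dashed line. The 10 genes have the lowest median (−0.26) with 0 called, and the 78 respiratory subunits lie in a narrow band between −0.23 and 0.29 with 0 called.

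The genes whose levels across the 8 libraries were most like those of the 3 genes with the smallest p-values were sought among 8746 rows with at least 5 CPM, by the root mean square difference of log2 CPM after subtracting each gene's mean. Nearest to *Pprc1* were *Numa1* (0.0455), *Ankle2* (0.0525), *Crebbp* (0.0616) and *Cnot6l* (0.0631). Their log2 fold changes were −0.37, −0.37, −0.41 and −0.37, and none was called. *Crebbp*, the acetyltransferase CBP, is itself in the list of co-regulators. Around *Ppargc1a* the nearest were farther off, at 0.174 for *Dusp18*, 0.220 for *Zdhhc23*, 0.329 for *Pank1* and 0.408 for *Inpp4b*. Of these *Pank1*, which makes coenzyme A, fell by 1.53 (SE 0.22, edgeR adjusted p = 0.00219) and was called whichever library was left out, while *Dusp18* (−1.07, adjusted p = 0.172), *Zdhhc23* (−1.13, adjusted p = 0.0898) and *Inpp4b* (−0.90, adjusted p = 0.089) missed the threshold in edgeR. DESeq2 and pydeseq2 called *Zdhhc23* (adjusted p = 0.0082 and 0.0085) and *Inpp4b* (0.0197 and 0.0205), the latter was also called with the odd and even term (0.0312), and without NOX4-deficient replicate 4 edgeR called *Dusp18* (−1.49, adjusted p = 0.045), *Zdhhc23* (−1.46, 0.0276) and *Inpp4b* (−1.21, 0.0156). For *Ppargc1b* they were *Prrg1* (0.178), *Meg3* (0.191), *Ttyh2* (0.209) and *Rnf213* (0.215). *Meg3*, *Ttyh2* and *Rnf213* rose by 0.67, 0.70 and 0.73 on the log2 scale (edgeR adjusted p = 0.0327, 0.0255 and 0.0141). The likeness includes the difference between genotypes, so these fold changes are not independent of the choice. Of the called neighbours, *Meg3* lost its call when any library was left out other than control replicate 2 and NOX4-deficient replicate 1 (adjusted p 0.0532 to 0.0712), *Ttyh2* was not called without control replicate 2 or NOX4-deficient replicate 1 or 2 (adjusted p 0.0523 to 0.0588), and *Rnf213* was called whichever library was left out.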

How the data were processed

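Gastrocnemius RNA from 4 control and 4 NOX4-deficient mice was sequenced after poly(A) selection as unstranded paired-end libraries. The values deposited by the authors are counts from the nf-core RNA-seq pipeline, with a row per gene and a column for each mouse, and are not normalized. The submitters' processing notes name STAR and GRCm39. Each of the 8 columns bore the name of its sample, and 0 others were present. Counts of overlapping genes can include each other's reads, since strand was not recorded.

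Genotypes were compared with edgeR 4.0.16 in R 4.3.3 (TMM, filterByExpr, robust quasi-likelihood fit, genotype as the only term, Benjamini-Hochberg over 12725 rows). The thresholds, 0.05 for the adjusted p and 0.5 for the size of the log2 fold change, are those of the study. DESeq2 1.42.0, pydeseq2 0.5.4, other scalings, filters and thresholds, repeated names summed, replicate number as a block, odd against even numbers as a term and each library left out were the alternatives. Replicates differed by more than sampling noise in all 12 pairs, with a chi-square of 12.6 to 52.1 for each degree of freedom. Simulated counts were used to test the edgeR step. Transcript lengths and exon overlaps came from GENCODE M21 (GRCm38), an older build than the GRCm39 of the counts. Promoters came from RefSeq, and their printed positions are on GRCm38.p6 and not on GRCm39. The 412 rows that repeat a name were kept, and a name stands for its row with most counts.

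Besides the 10 genes, the text names from each list up to 4 called genes with the smallest p-values, or the 2 smallest where fewer than 2 were called, and the 4 rows nearest in profile to the 3 genes with the smallest p-values. The members and lists were chosen with earlier results of these data known. The result of 1 further marker list is not reported here.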

Additional observations from a re-analysis of the deposited data

Results flagged for a closer look

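In each group of 4 libraries, the gap of the highest or lowest library to its nearest neighbour was divided by the range of the group and set against Dixon's critical value at the 95% level. Of 86 groups tested (43 genes), 8 passed, where chance gives about 4.3 (1 in 20) for independent groups. The genes include those picked for profiles like those of *Pprc1*, *Ppargc1a* or *Ppargc1b*, so the groups were not independent. The excess over 4.3 was therefore not read as a result. *Ppargc1a* was set apart by NOX4-deficient replicate 4, at 61.4 CPM against 27.7 to 33.0 CPM (ratio 0.841), and *Dusp18*, the gene nearest to it in profile, by the same library at 32.4 against 11.8 to 15.3 CPM (ratio 0.832). *Inpp4b*, another gene of like profile, was highest in control replicate 2 at 25.7 against 14.1 to 15.6 CPM (ratio 0.875). *Lpin1* was highest in control replicate 4, at 970 against 614 to 655 CPM (ratio 0.884). *Crebbp* was lowest in NOX4-deficient replicate 1, at 26.7 against 32.5 to 33.5 CPM (ratio 0.853). Of the genes nearest to *Ppargc1b*, *Ttyh2* was lowest in control replicate 1, at 5.03 against 7.77 to 8.16 CPM (ratio 0.875), and *Rnf213* highest in NOX4-deficient replicate 2, at 18.9 against 14.1 to 14.6 CPM (ratio 0.887). *Nox4* was lowest in NOX4-deficient replicate 1, at 1.74 against 2.17 to 2.21 CPM (ratio 0.918).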

How the results depend on the processing

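Of all rows tested, 784 were called, 252 at an adjusted p under 0.01, and 719 to 1018 under the other alternatives that kept all 8 libraries. With each library left out the count ranged from 499 (without control replicate 4) to 712. Of the 10 genes 0 were called, and 1 was called with the fit that was not robust, with DESeq2 and with pydeseq2 (*Ppargc1a* in each), and 1 with odd against even replicate numbers as a term (*Ppargc1b*, 0.71, adjusted p = 0.0494). With libraries left out this count ranged from 0 to 1, the 1 being *Esrrb* without NOX4-deficient replicate 4. With single libraries left out, signs turned for *Perm1* (−0.43 to 0.00094, above 0 without control replicate 2), *Tfam* (−0.098 to 0.063, above 0 without control replicate 3, at 0.031, or NOX4-deficient replicate 2), *mt-Nd2* (−0.09 to 0.072, above 0 without control replicate 2, at 0.0024, or NOX4-deficient replicate 3), *mt-Co3* (−0.70 to 0.10, above 0 without control replicate 2 or NOX4-deficient replicate 2, the latter at 0.012) and *Vdac1* (−0.0078 to 0.14, below 0 without control replicate 4). The cause of these changes was not tested. Of 288 counts of called genes in lists under alternatives, 273 were within 1.5 times the reported count and 15 were not. Many of the reported counts were 0, where this meant only that the count stayed 0. The loss of a single call could also fall within the bound. *Ppargc1a* had an adjusted p of 0.227 with no filter on low counts. The depth of 26 to 113 reads limits the precision for *Ppargc1b*.

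With the replicate number as a block 933 rows were called and 0 of the 10 genes, and *Ppargc1a* had a log2 fold change of −1.32 (adjusted p = 0.235). The correlation of same-numbered deviations was 0.22, 0.15, 0.04 and 0.04, and only control replicate 1 correlated best with its own number. These few low correlations cannot decide whether mice of the same number were paired. More rows were called with the numbers as a block (933) or as an odd and even term (962) than without them (784).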
